A study of Mus musculus with 8 samples.

Results

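The enzymes that convert cholesterol into conjugated bile acids were compared between liver tumours driven by human c-MYC and normal mouse liver. The 10 genes, taken as a list of the classical and alternative pathways, the ring and side-chain steps and the conjugation steps, were Cyp7a1, Cyp8b1, Cyp27a1, Cyp7b1, Hsd3b7, Akr1d1, Acox2, Amacr, Slc27a5 and Baat. All 10 were measured among the 19937 genes tested, each by 1 probe set annotated to that gene alone. The tumours were 4 samples named c-MYC liver tumour, from mice in which human c-MYC is expressed in the liver through the CEBPB-LAP promoter, which is active in hepatocytes, under doxycycline control, and they were taken at the humane endpoint. The reference was 4 samples named Control Liver, which were normal livers of matched mice. The labels give neither strain, sex nor age, and they do not say whether the matched mice carried the transgene or received doxycycline. Nothing in the labels ties a sample to an animal, and the p-values therefore speak of the variation among these 8 samples, part of which may be technical. Total RNA of each sample was hybridised to 1 Affymetrix mouse gene array, and every value below is a log2 value after the submitters' RMA normalisation, so a step of 1 is a doubling.

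Array medians lay between 6.33 and 6.44, and arrays of a group resembled each other more closely than arrays of different groups, with mean correlations across genes of 0.983 among tumours, 0.976 among control livers and 0.882 between them. Control liver 3 stood apart in its sex-linked genes. Xist, the RNA of the inactive X chromosome, read 11.89 there and between 4.86 and 7.12 on the other arrays, whereas the 3 measured Y-linked genes, Uty, Kdm5d and Eif2s3y, read 3.46 to 5.39 there and 7.62 to 9.37 elsewhere. Arrays give no counts and this table holds no detection calls, so the Y-linked values on control liver 3 and the Xist values on the other arrays serve as rough guides to how low a gene with little or no expression reads, which can differ between probe sets. The tumour means of 6 of the 10 bile acid synthesis genes, Cyp7a1, Cyp8b1, Cyp7b1, Amacr, Slc27a5 and Baat, were no higher than 7.12, the upper end of that Xist range. The median of every array lay below 7.12 too, so most probe sets read under it. A mean below 7.12 thus does not show that a gene was at the low end of the scale. Where it was, the fold change is a lower limit rather than an exact size. Hepatocyte markers were bright in both groups. The mean of 11 of them, Alb and Ttr among them, lay between 11.35 and 12.08 in tumours and between 12.52 and 12.77 in control livers.

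Bile acids are the end product of cholesterol breakdown in hepatocytes, and they are secreted into bile to dissolve dietary fat. In the classical pathway CYP7A1 makes the first and rate-limiting hydroxylation of cholesterol, and CYP8B1 adds the further hydroxyl group that turns the product into cholic acid. In the alternative pathway CYP27A1 oxidises the side chain first and CYP7B1 then hydroxylates the oxysterol. Both routes share the ring enzymes HSD3B7 and AKR1D1, the peroxisomal side-chain enzymes AMACR and ACOX2, and the final coupling to taurine or glycine, for which the ligase encoded by Slc27a5 activates the bile acid and BAAT transfers the amino acid. Bile acids limit their own synthesis through the receptor FXR, encoded by Nr1h4, and its target SHP, encoded by Nr0b2.

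RefSeq promoter sequences for the GRCm38.p6 build were at hand for 5 of the 10 genes, and for 3 of these the sequence runs up to the gene's outermost annotated start. The 250 bases before the start are shown for these 3, which were not chosen by their changes. They are a hydroxylase gene with a fall of 4.99-fold and a ring and a side-chain enzyme gene with falls of 1.89-fold and 2.40-fold.
Cyp8b1 at chr9:121916306-121916555, minus strand: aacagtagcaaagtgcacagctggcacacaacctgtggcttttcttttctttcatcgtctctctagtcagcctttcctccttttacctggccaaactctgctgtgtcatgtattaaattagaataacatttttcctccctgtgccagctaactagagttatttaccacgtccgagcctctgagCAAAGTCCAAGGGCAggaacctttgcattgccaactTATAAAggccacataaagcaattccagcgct
Hsd3b7 at chr7:127800359-127800608, plus strand: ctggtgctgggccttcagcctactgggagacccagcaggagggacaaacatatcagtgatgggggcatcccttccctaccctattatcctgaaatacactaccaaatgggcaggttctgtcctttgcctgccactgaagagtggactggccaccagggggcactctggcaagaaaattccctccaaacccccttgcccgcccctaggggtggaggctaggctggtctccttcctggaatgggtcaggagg
Acox2 at chr14:8259020-8259269, minus strand: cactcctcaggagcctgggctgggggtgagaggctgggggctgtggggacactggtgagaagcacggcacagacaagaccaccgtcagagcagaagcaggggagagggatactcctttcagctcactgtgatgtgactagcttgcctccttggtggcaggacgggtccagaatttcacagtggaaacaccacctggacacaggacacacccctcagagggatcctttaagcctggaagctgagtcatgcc
Capitals mark matches to 4 motifs that were searched on both strands. CAAAGTCCA, a form of the HNF4A recognition sequence, and CAAGGNCA, a form of that of LRH-1 (encoded by Nr5a2), matched Cyp8b1 from 67 to 59 and from 60 to 53 bases before the start, and these matches overlap. TATAAA matched Cyp8b1 from 31 to 26 bases before the start, and the E-box CACGTG, which MYC and MAX can bind, matched none of the 6 windows of the 5 genes. Neither the Hsd3b7 nor the Acox2 sequence above held any of the 4 motifs. Among 32851 RefSeq promoter windows of the same length, 0.384% held CAAAGTCCA, 5.53% CAAGGNCA, 6.02% CACGTG and 12.4% TATAAA. The 4 motifs were chosen after the promoters were seen, so these shares do not show that a match in Cyp8b1 is unusual. A match describes letters and not a bound site.

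The tumours had lower levels of 8 of the 10 bile acid synthesis genes and higher levels of none, at an adjusted p of 0.05 in limma over all genes. Over all genes tested 12.7% were lower, 16.2% higher and 28.9% changed in either direction at the same threshold. All 4 tumours lay below all 4 control livers for 9 of the 10 genes, against 13.9% of all genes, and 16.3% of all genes lay above. A called fall of at least 2-fold was seen for 7 genes, against 4.68% of all genes, and one of at least 4-fold for 6, against 1.86%. The median log2 change of the 10 genes was -2.37, and that of all genes was -0.04. In the same arrays all 11 measured hepatocyte markers were lower too, with a median change of -0.62. Their control means lay between 11.5 and 13.29, and the highest value of any gene was 13.34. Whether part of a fall is hidden near that value was not tested, and the medians of -2.37 and -0.62 were not compared. In whole tissue, fewer hepatocytes and less RNA per hepatocyte cannot be told apart.

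**Figure D1:**
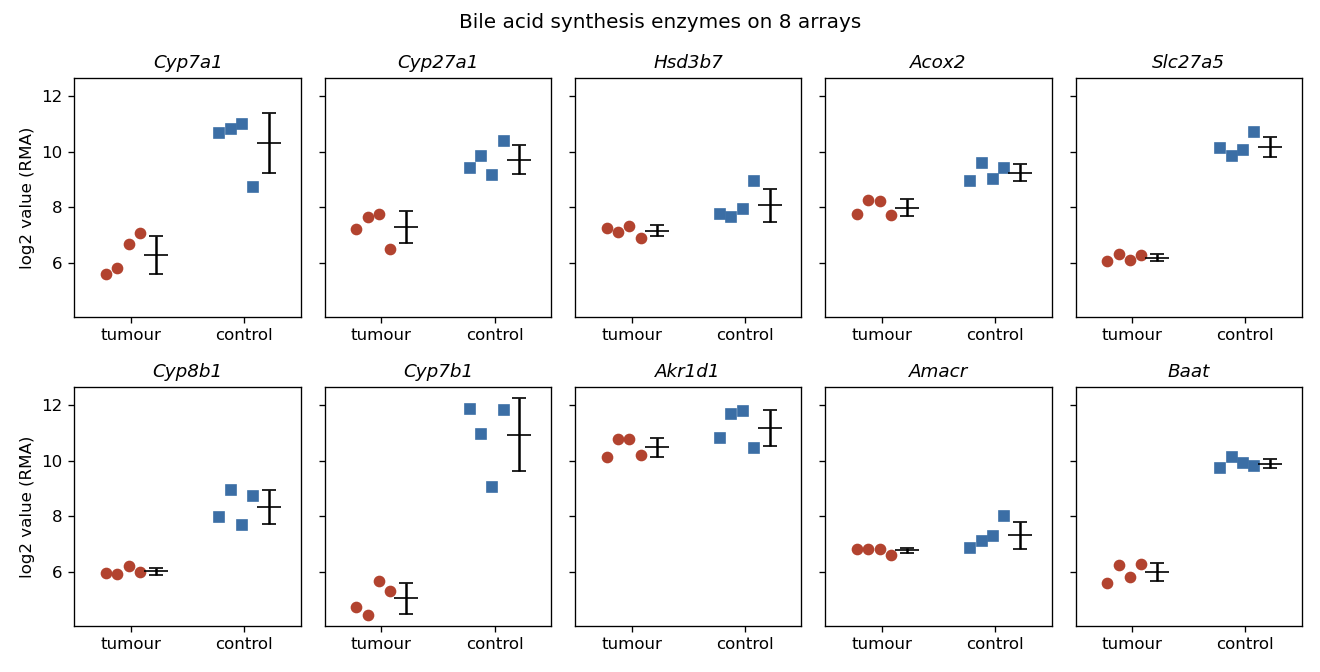
Log2 values (vertical axis) of the 10 bile acid synthesis genes on 8 arrays, with tumours as circles on the left and control livers as squares on the right of each panel. Bars beside the points give the mean ± SD of 4 arrays. The groups overlapped for Akr1d1 alone, and Slc27a5 and Baat had narrow groups far apart.

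In the classical pathway, both hydroxylase genes were lower in tumours. Cyp7a1, the rate-limiting gene, read 5.61, 5.83, 6.67 and 7.07 in tumours, against 10.68, 10.82, 11.01 and 8.73 in control livers. The highest tumour thus lay 1.66 below control liver 4, which was itself 1.94 below the nearest other control. The log2 change was -4.01 (SE 0.49, limma adjusted p = 0.00013), or 16.2-fold, and -4.54 without control liver 4. Cyp8b1, which sets the share of cholic acid, read 5.95, 5.92, 6.23 and 5.99 in tumours, against 7.98, 8.96, 7.68 and 8.74 in control livers. Its tumour values were close together (6.02 ± 0.14, SD, n = 4), while its control values spread over 1.28. The log2 change was -2.32 (SE 0.25, adjusted p = 5.4e-05), or 4.99-fold.

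In the alternative pathway the fall of Cyp7b1 was the largest among the 10 genes. Cyp7b1 read 4.75, 4.47, 5.68 and 5.31 in tumours, against 11.87, 10.97, 9.06 and 11.82 in control livers. Its tumour mean of 5.05 ± 0.55 (SD, n = 4) lay within the 3.46 to 5.39 of the Y-linked genes on control liver 3 as well. The change was -5.88 (SE 0.55, adjusted p = 1.94e-05), or 58.7-fold, which may be a lower limit. In mouse liver Cyp7b1 is known as a male-predominant gene. Control liver 3, with high Xist and low Y-linked genes, had the lowest control value, 2.49 below the mean of the other 3 controls (11.55 ± 0.50, SD, n = 3). Without that array the change was -6.50, and with the Y-linked level as a covariate it was -6.42. Cyp27a1, the mitochondrial sterol hydroxylase, read 7.22, 7.66, 7.76 and 6.50 in tumours, against 9.43, 9.85, 9.18 and 10.38 in control livers. Its change was -2.43 (SE 0.31, adjusted p = 0.000166), or 5.38-fold, with tumour 4 lowest and control liver 4 highest.

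The ring-modifying genes had smaller changes. Hsd3b7, which oxidises the hydroxyl group that cholesterol brings along, read 7.27, 7.12, 7.34 and 6.90 in tumours, against 7.76, 7.66, 7.93 and 8.95 in control livers. The groups did not overlap, with a gap of 0.32 between the highest tumour and the lowest control. The log2 change was -0.92 (SE 0.25, adjusted p = 0.0189), and -0.63 without control liver 4. The call was lost without tumour 4 (adjusted p = 0.0541 in limma). Akr1d1, the reductase that bends the sterol ring system, was the only one of the 10 genes whose groups overlapped. It read 10.13, 10.79, 10.77 and 10.22 in tumours, against 10.81, 11.67, 11.77 and 10.45 in control livers. Its change of -0.70 (SE 0.29, 95% interval -1.35 to -0.05) did not pass (adjusted p = 0.106), but passed without control liver 4, whose value was the lowest control (-0.94, adjusted p = 0.0224 in limma).

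Of the peroxisomal side-chain genes Acox2 was lower and Amacr did not pass. Acox2, the branched-chain acyl-CoA oxidase, read 7.75, 8.28, 8.22 and 7.71 in tumours, against 8.95, 9.60, 9.01 and 9.43 in control livers. The change was -1.26 (SE 0.19, adjusted p = 0.000445), or 2.40-fold. Amacr, the racemase that prepares the side chain for that oxidase, read 6.83, 6.82, 6.84 and 6.62 in tumours, against 6.88, 7.13, 7.28 and 8.0 in control livers. All tumours lay below all controls, but only by 0.04 at the closest, and the change of -0.54 (SE 0.21, 95% interval -1.0 to -0.09) had an adjusted p of 0.0747. The change was -0.32 without control liver 4, the highest control. Without control liver 1, the lowest control, the change of -0.69 passed (adjusted p = 0.0256 in limma).

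Both conjugation genes were lower in tumours. Slc27a5, which encodes the bile acid CoA ligase, read 6.09, 6.31, 6.11 and 6.29 in tumours, against 10.15, 9.84, 10.05 and 10.69 in control livers. Its change was -3.99 (SE 0.16, adjusted p = 8.35e-08), or 15.8-fold, with all 4 tumour values inside the Xist range above. Baat, the amino acid transferase, read 5.62, 6.24, 5.84 and 6.29 in tumours, against 9.73, 10.12, 9.91 and 9.82 in control livers. Its change was -3.90 (SE 0.16, adjusted p = 8.06e-08), or 14.9-fold, with all 4 tumour values in that range too. These were the smallest adjusted p-values of the 10 genes, and the SDs within groups lay between 0.12 and 0.36.

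**Figure D2:**
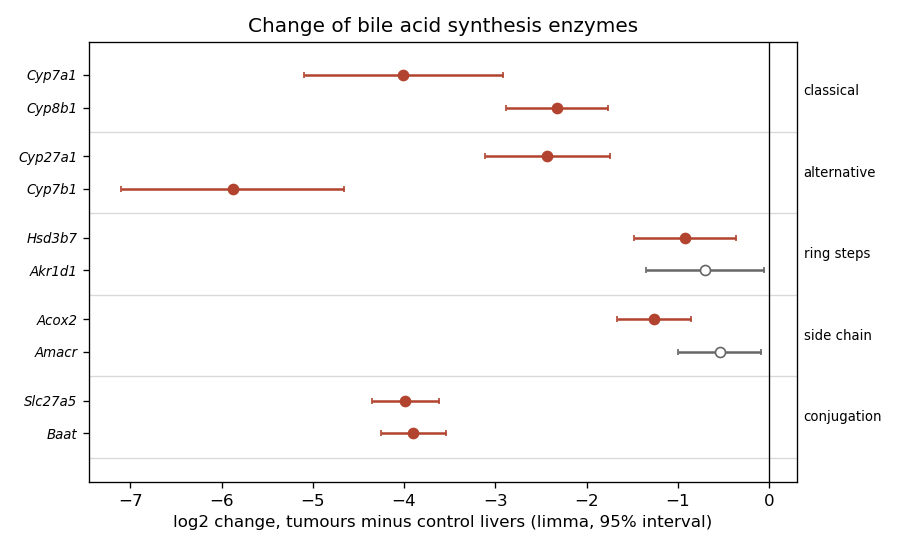
Log2 change (horizontal axis, tumours minus control livers) of the 10 genes by pathway step, with the 95% interval from limma. Filled points passed an adjusted p of 0.05 and open points did not; the open points are Akr1d1 at -0.70 and Amacr at -0.54, and Cyp7b1 lies farthest left at -5.88.

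The size of the change differed between genes of the pathway. The within-array difference was compared between groups for all 45 pairs of the 10 genes with an exact two-sided permutation test, whose smallest possible p with 4 against 4 arrays is 0.0286. In 28 pairs this smallest value was reached, which gave an adjusted p of 0.0459 over the 45 pairs. That adjusted p depends on how many pairs reached the smallest value, and the pairs share genes. The share among pairs of other genes was not computed. Slc27a5 and Baat each changed by more than Hsd3b7, Akr1d1, Acox2 and Amacr in all 8 such pairs, with differences of 2.64 to 3.44. Cyp7b1 changed by more than Cyp8b1 (difference of changes 3.56) and Cyp27a1 (3.45). The change of Cyp7a1 minus that of Cyp7b1 was 1.86 and did not pass (exact permutation p = 0.143). The change of Cyp7b1 minus that of Slc27a5 (-1.89, exact permutation p = 0.0857) or Baat (-1.98, exact permutation p = 0.0571) did not pass either. Slc27a5 and Baat differed from each other by -0.09 (exact permutation p = 0.743), and Cyp8b1 and Cyp27a1 by 0.11 (exact permutation p = 0.714). The difference of -1.69 between Cyp7a1 and Cyp8b1 did not pass (exact permutation p = 0.0857, adjusted 0.11). A gene near the low end of the scale can show only part of its fall, which may bound the comparisons with Cyp7b1, Cyp7a1, Cyp8b1, Amacr, Slc27a5 and Baat.

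Within a group the 10 genes did not move as a block. Their mean was 6.72, 6.94, 7.15 and 6.89 in tumours 1 to 4, against 9.42, 9.66, 9.29 and 9.70 in control livers 1 to 4. Tumour 4 had the lowest tumour value of 4 genes, Cyp27a1, Hsd3b7, Acox2 and Amacr, and the highest of 2, Cyp7a1 and Baat. Tumour 3 was highest for 5 genes and lowest for none, and tumour 1 was lowest for 4 and highest for none. Control liver 4 had the highest control value of Cyp27a1, Hsd3b7, Amacr and Slc27a5 but the lowest of Cyp7a1 and Akr1d1. The same array had the highest value of Nr0b2, whose product SHP represses Cyp7a1, at 9.31 against 6.42, 7.55 and 7.98 in the other controls. With 4 controls no correlation was computed, and whether Nr0b2 bears on Cyp7a1 here was not tested. The SD was smaller in tumours than in control livers for 8 of the 10 genes, against 48.8% of all genes. However, 6 of the 10 tumour means were no higher than 7.12, where the low end of the scale may narrow the spread. Single arrays also widened some control SDs, as control liver 4 did for Cyp7a1. The median SD of the 10 genes was 0.31 in tumours and 0.56 in control livers, while that of all genes was 0.17 in tumours and 0.16 in control livers.

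**Figure D3:**
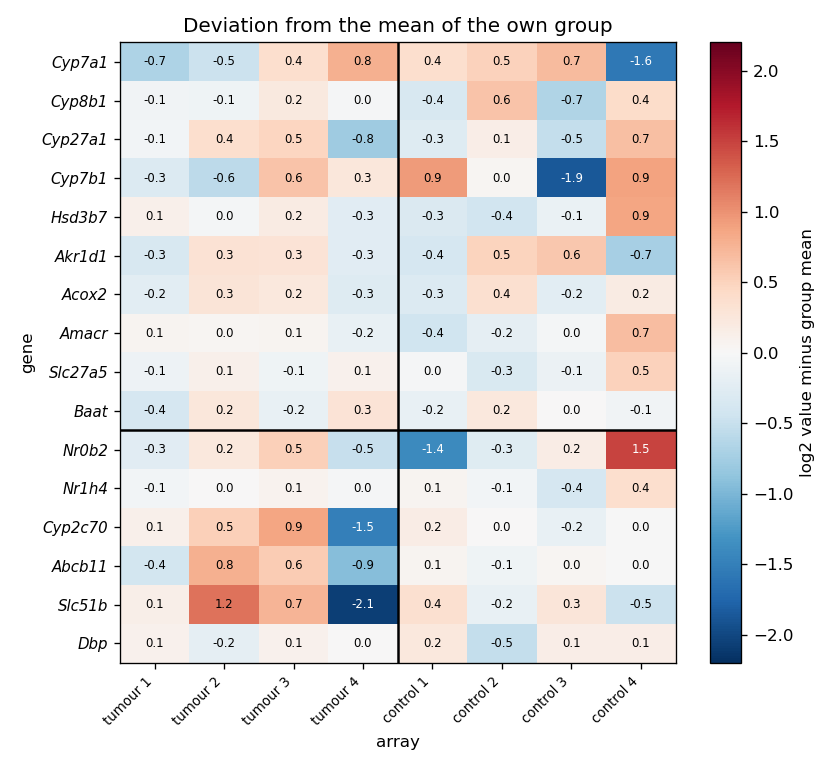
Log2 value minus the mean of the array's own group, for the 10 bile acid synthesis genes (upper block) and 6 related genes (lower block), with tumours left of control livers. Control liver 4 was low in Cyp7a1 and high in Nr0b2, control liver 3 was low in Cyp7b1, and tumour 4 was low in Cyp27a1, Cyp2c70, Abcb11 and Slc51b.

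Other enzymes of bile acid metabolism were lower in 9 of 13 cases and higher in none, against 12.7% and 16.2% of all genes. Their median change was -1.19. Akr1c6, an aldo-keto reductase of a family that works on steroids, read 5.44, 5.11, 4.93 and 5.39 in tumours, against 12.07, 11.96, 11.92 and 12.16 in control livers. Its change of -6.81 (SE 0.13, adjusted p = 1.32e-09) ends near the low end of the scale. Cyp2a12, which in mice hydroxylates bile acids that return from the gut, changed by -5.25 (SE 0.20, adjusted p = 4.39e-08). Cyp2c70, the mouse enzyme behind muricholic acids, read 9.43, 9.85, 10.18 and 7.81 in tumours, against 12.69, 12.54, 12.36 and 12.51 in control livers. Its change was -3.21 (SE 0.41, adjusted p = 0.000185), with tumour 4 lowest. The genes of the peroxisomal steps, named after their values were seen, were lower as well: the thiolase gene Scp2 changed by -2.73 (SE 0.36), Hsd17b4 of the step before it by -1.20 (SE 0.13), the importer gene Abcd3 by -1.19 (SE 0.11) and the ligase gene Slc27a2 by -0.65 (SE 0.10). The hydroxylase gene of the minor oxysterol route, Cyp39a1, was among the 4 genes that did not pass; it was chosen after its values were seen, which were 6.63, 9.59, 8.99 and 7.01 in tumours, against 7.71, 8.03, 8.01 and 7.39 in control livers. The groups overlapped, with 2 tumours above and 2 below every control.

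All 5 uptake carrier genes were lower in tumours, whereas export carrier genes changed in both directions. Slc10a1, the sodium-dependent bile acid importer NTCP, read 10.53, 11.07, 10.88 and 10.33 in tumours, against 11.92, 12.03, 12.13 and 12.25 in control livers, a change of -1.38 (SE 0.16, adjusted p = 8.78e-05). The organic anion carriers Slco1a1, Slco1b2 and Slco1a4 changed by -6.97, -5.37 and -4.45, and the tumour means of Slco1a1 and Slco1a4, 4.88 and 4.51, were as low as the Y-linked genes on control liver 3. Of 11 genes of export, 7 were lower and 2 higher, against 12.7% and 16.2% of all genes. Abcb11, the canalicular bile salt export pump, read 10.60, 11.80, 11.56 and 10.08 in tumours, against 11.38, 11.22, 11.36 and 11.30 in control livers. Its mean change of -0.31 (SE 0.32, 95% interval -1.02 to 0.40, adjusted p = 0.544) joined 2 tumours above all controls with 2 below. Abcg5 and Abcg8, the cholesterol exporter pair, changed by -3.02 (SE 0.29) and -1.97 (SE 0.31).

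Slc51b, the beta subunit of the basolateral bile acid exporter, was higher in tumours. It read 10.09, 11.16, 10.70 and 7.89 in tumours, against 6.98, 6.46, 6.90 and 6.16 in control livers. All tumours lay above all controls, with tumour 4 well below the others. The change was 3.34 (SE 0.58, adjusted p = 0.00132), or 10.1-fold, and 4.03, or 16.3-fold, without tumour 4. The other export gene called higher was Abcc4, named after its values were seen, a further basolateral exporter, with a change of 0.91 (SE 0.21, adjusted p = 0.00818). Its groups all but touched, as the lowest tumour and the highest control both read 7.11. Slc51a, the alpha subunit that pairs with the product of Slc51b, was likewise named after its values were seen. It changed by -0.01 (SE 0.10), with a tumour mean of 5.95 and a control mean of 5.96. Both means lay within the Xist range above, and a change at the low end of the scale may not show.

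**Figure D4:**
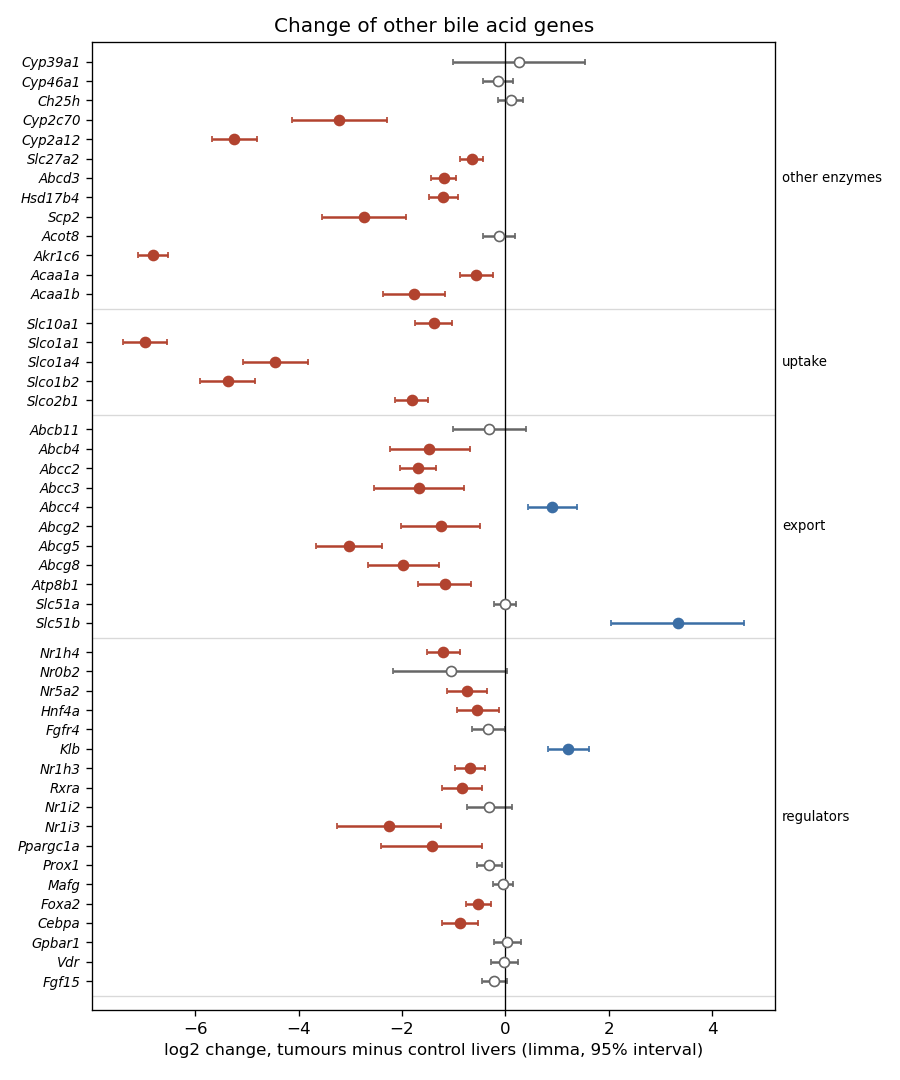
Log2 change (horizontal axis, tumours minus control livers) of 47 other bile acid genes by role, with the 95% interval from limma. Filled points passed an adjusted p of 0.05; the 3 filled points right of 0 are Abcc4, Slc51b and Klb.

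Among 18 measured regulators of the pathway 9 were lower and 1 higher, against 12.7% and 16.2% of all genes. Their median change was -0.53. Nr1h4, the gene of the bile acid receptor FXR, read 8.33, 8.40, 8.48 and 8.38 in tumours, against 9.66, 9.54, 9.23 and 9.97 in control livers. Its change was -1.20 (SE 0.14, adjusted p = 0.000112). Nr0b2 read 6.49, 6.98, 7.28 and 6.24 in tumours, against 6.42, 7.55, 7.98 and 9.31 in control livers, and its change of -1.06 (SE 0.50) did not pass (adjusted p = 0.148), though it passed without control liver 1 (-1.53, adjusted p = 0.0171 in limma). Nr5a2, the gene of LRH-1, which activates Cyp7a1 and Cyp8b1, changed by -0.74 (SE 0.17, adjusted p = 0.00831). Hnf4a, the hepatocyte factor that acts on the same promoters, changed by -0.54 (SE 0.18, adjusted p = 0.0494), a call lost in 7 of the 8 fits that left out an array, and -0.36 without control liver 4. Nr1i3, whose product CAR senses xenobiotics, showed a log2 change of -2.26 (SE 0.45, adjusted p = 0.0033).

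Of the genes for the receptor of the intestinal hormone that represses Cyp7a1, Klb was higher in tumours and Fgfr4 did not pass. Klb, the coreceptor beta-klotho, read 9.18, 9.07, 9.25 and 8.94 in tumours, against 7.99, 7.32, 8.10 and 8.16 in control livers. Every tumour lay above every control, and the change was 1.22 (SE 0.18, adjusted p = 0.000388). Fgfr4, the receptor itself, read 7.01, 6.69, 6.71 and 6.59 in tumours, against 6.98, 6.97, 6.90 and 7.46 in control livers, with a change of -0.33 (SE 0.14, 95% interval -0.65 to -0.01, adjusted p = 0.125). Ppargc1a, a coactivator induced by fasting, changed by -1.42 (SE 0.44, adjusted p = 0.0334), a call lost without control livers 1, 2 or 3 or tumours 1 or 4 (adjusted p between 0.0759 and 0.0958 in limma).

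Cyp7a1 is known to follow the daily rhythm in mouse liver, and the labels give no time of day. Of 14 measured clock genes 4 were lower and none higher, against 12.7% and 16.2% of all genes, or 28.9% in either direction. The median change of the 14 was -0.37. When single arrays were left out, the number lower ranged from 2 (without tumour 3) to 6 (without control liver 2). The 4 called lower on all 8 arrays were Clock, Per3, Dbp and, named after its values were seen, Tef. Dbp, a rhythmic activator of Cyp7a1, read 6.65, 6.35, 6.65 and 6.56 in tumours, against 7.40, 6.63, 7.31 and 7.31 in control livers. Control liver 2 stood low for Dbp, and other clock genes, named after their values were seen, set it apart too. Nr1d1 read 7.01 there, against 8.61, 9.26 and 10.41, and Nr1d2 read 8.17, against 9.55 to 10.04. Arntl (7.89) and Cry1 (9.04) were highest there, while Per1, Per2 and Hlf lay within the range of the other controls. Cyp7a1 read 10.82 on control liver 2, close to control livers 1 and 3. Nr1d1 was highest on control liver 4 (10.41), where Cyp7a1 was lowest (8.73). Clock and Per3 changed by -1.01 (SE 0.14) and -0.98 (SE 0.27). The calls were lost without control liver 1 or tumour 2 for Dbp (adjusted p = 0.0513 and 0.0538 in limma) and without tumour 1 or 3 for Per3 (0.053 and 0.0527). The part of time of day in the change of Cyp7a1 was not tested.

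Genes known as male-biased in mouse liver were also lower in tumours, in 6 of 7 cases, or 7 without control liver 3, with a median change of -3.60. Hsd3b5, one of these, read 4.80, 5.31, 4.99 and 5.47 in tumours, against 11.58, 11.01, 5.51 and 12.00 in control livers, so that control liver 3 lay near the tumours; its change was -4.88 (SE 1.17) with that array, -6.39 without it and -4.23 without control liver 4. The call of Hsd3b5 did not hold (limma adjusted p = 0.0525) when the variance was fitted robustly with a trend on intensity. For Elovl3 the change was -4.49 (SE 0.83), with -5.51 when control liver 3 was left out and -3.89 when control liver 2 was. That of C6 was -4.34 (SE 0.61), or -5.12 when control liver 3 was left out. The tumour means of Hsd3b5 and Elovl3 lay as low as the Y-linked genes on control liver 3. Of 6 measured female-biased genes 1 was lower, Cyp2b9 (-4.04, SE 1.05, adjusted p = 0.0143), and none was higher, against 12.7% and 16.2% of all genes. Acot3, named after its values were seen, passed as higher without control liver 3. The change of Cyp2b9 was -2.97 without control liver 3 and -5.17 without control liver 1, and its call did not hold under the same robust fit (limma adjusted p = 0.0669) or against a 1.5-fold change (0.0519). For Cyp7b1 the tumours lay below control liver 3 as well, by 3.38 at the closest.

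Markers of other cells moved with the groups in part, and the counts below stand against 12.7% lower and 16.2% higher over all genes. Of 8 endothelial markers 4 were lower and none higher, Clec4g, Fcgr2b and Stab2 of the sinusoids most (-2.71, -1.98 and -1.53), and the mean of the list lay between 6.65 and 6.99 in tumours and between 7.32 and 7.87 in control livers. Of 8 macrophage markers 3 were higher, led by Lyz2 (2.61) and Cd68 (2.11), and 2 lower, Vsig4 most (-2.38), with list means of 7.68 to 8.36 in tumours and 7.52 to 8.41 in control livers. Of 8 stellate cell markers 3 were lower, Reln, Lrat and Dcn (-1.66, -1.64 and -1.46; Dcn lost its call without tumour 4), with list means of 6.83 to 7.37 in tumours and 7.53 to 7.78 in control livers. Among 6 cholangiocyte markers Epcam was higher (0.88) and Sox9 lower (-0.32, a call lost without any of the controls or tumour 1, 2 or 3), with list means of 5.53 to 5.87 in tumours and 5.6 to 5.68 in control livers, while the defining keratin Krt19 read low in both groups, 5.36 to 5.82 in tumours and 5.63 to 5.82 in control livers. In limma none of 7 lymphocyte markers passed either the adjusted threshold or an unadjusted p of 0.05, and Ms4a1 had the largest change (-0.34). The part of these cells in the changes of the bile acid genes was not tested. The hepatocyte markers with the largest falls were Hpx (-3.05), Ahsg (-1.11) and Apob (-1.03).

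The genes whose profile over the 8 arrays lay nearest to the mean profile of the 10 bile acid genes were Bhmt, Clec4g, Ube2e2, Ncam2 and Ephx2, with root mean square distances of 0.21 to 0.23 on the log2 scale and changes between -2.87 and -2.33. Nearest to Cyp7a1 itself were Upp2, Cyp3a44 and Cyp2r1, at 0.46, 0.56 and 0.68, with changes of -4.57, -4.18 and -4.46. The larger distances for Cyp7a1 go with its wider spread, 0.69 in tumours and 1.06 in control livers (SD, n = 4 each). These distances mostly reflect the difference between the groups and describe likeness alone.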

How the data were processed

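The authors deposited normalised log2 values of 34760 probe sets on 8 arrays. The submitters' processing notes name RMA and R 3.0.2; settings and genome build are not given in the sources used here. The platform annotation gave 1 gene symbol to 21640 probe sets, several to 1321 and none to 11799. The probe set with the highest mean was kept per gene, leaving 19937 genes, named through RefSeq where matched (21553 probe sets). Group was the only term in limma 3.58.1 (lmFit, eBayes; R 4.3.3), with Benjamini-Hochberg adjustment over all genes and a threshold of 0.05. Errors are SD of 4 arrays for means and SE from limma for changes. Pairs of genes were tested with scipy 1.17.1 in Python 3.11.15. The fit was tested on simulated data in which 200 genes changed.

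The members and lists were chosen with earlier results of these data known, and motifs after the promoters were seen. Named genes were the 10 members, a fixed panel of regulators, carriers and sex-linked genes, and of each other list up to 3 genes with the largest called change, with the largest one going the rarer way, or the largest change where none passed. Exceptions are stated. List entries without a probe set of their own (11 in all) were not analysed here. Alternatives were quantile normalisation, median centring, leaving out dim genes, robust variance with an intensity trend, weights per array, a replicate block, a Y-linked covariate, the mean of probe sets, a test against a 1.5-fold change and leaving out each array. The number of arrays limits the precision.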

Additional observations from a re-analysis of the deposited data

Results flagged for a closer look

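Single arrays far from the other 3 of their group were looked for in 110 groups of 4 arrays by the share of the group's range that separates 1 array from the nearest other, and 13 were found. Chance alone gives about 1 in 20 such groups. Of the 20 groups of bile acid synthesis genes 2 stood out: Cyp7a1 read 8.73 on control liver 4, against 10.68 to 11.01 on the other controls, and Amacr read 6.62 on tumour 4, against 6.82 to 6.84 on the other tumours. Control liver 4 was also apart for Hnf4a (9.79, against 9.09 to 9.11) and Fgfr4 (7.46, against 6.90 to 6.98). Control liver 3 was apart for Xist (11.89), Uty (3.87), Kdm5d (5.39) and Eif2s3y (3.46), and for the male-biased genes Hsd3b5 (5.51, against 11.01 to 12.00) and C6 (7.90, against 10.91 to 11.17). Dbp was low on control liver 2 (6.63), Hpx was high on control liver 1 (12.65), and Uty was low on tumour 1 (7.72, against 8.13 to 8.19). No cause was tested.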

How the results depend on the processing

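Of 170 changes of the 10 genes recomputed under 17 alternatives, 165 kept their direction and their side of the threshold. The others were Hsd3b7, which did not pass against a 1.5-fold change (adjusted p = 0.761 in limma) or without tumour 4 (0.0541), Akr1d1, which passed with the replicate block (-0.70, adjusted p = 0.011) and without control liver 4 (0.0224), and Amacr, which passed without control liver 1 (0.0256). The number of the 10 genes called lower was 7 to 9 when single arrays were left out. The test against a 1.5-fold change, a stricter question, left 3 lower and 1 higher of the export genes, 2 lower of the regulators, 2 lower of the hepatocyte markers and 0 of the clock, female-biased and cholangiocyte genes in either direction. Eif2s3y, a Y-linked gene, reversed without control liver 3 (-0.47, adjusted p = 0.0304). Hnf4a lost its call in 11 of the 17 alternatives. No pairing by the numbers in the labels was seen: tumours and controls of the same number had correlations of their deviations of -0.057, 0.005, 0.055 and -0.32. Such correlations cannot exclude a pairing, since paired samples need not deviate together. No tumour and 1 of 4 controls correlated best with its own number. With the replicate block 5007 genes were called, against 5757 without it. Leaving out arrays could not be tried for the pairs of genes, since 3 against 4 arrays cannot go below an exact permutation p of 0.0571. With no detection calls in the table, the low end of the scale may limit the folds of genes with low tumour values. Of 40 named genes called lower, 25 had a tumour mean no higher than 7.12, the upper end of Xist outside control liver 3. The array medians lay below that level too, so most probe sets read under it. For 6 of these genes, Cyp7b1, Akr1c6, Slco1a1, Slco1a4, Hsd3b5 and Elovl3, the tumour mean was no higher than the Y-linked genes on control liver 3.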
